A study of Solanum lycopersicum with 3 samples.

Results

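ACO4, ACO5, ACS1A and E8 are 4 tomato genes tied to the hormone ethylene, and 3 of them encode enzymes that make it. They were chosen by gene symbol, the platform's or the current one. No value entered that rule, but earlier results of these data were known. Each was read by 1 probe set, so 4 of the 803 named genes, and 4 of the 10038 non-control probe sets, are described here. RNA came from fruit pericarp, the fleshy fruit wall, of Solanum lycopersicum cultivar Ailsa Craig grown under glass, and was measured on Affymetrix tomato GeneChips. The 3 arrays form 3 groups of 1 array each. The plants carry no stated transgene, and the labels give neither the age nor the ripening stage of the fruit nor the number of fruit behind each 10 to 12 g of tissue. For Ex1, tissue was taken up in 1 ml per g of a buffer containing phenol and then shaken with phenol and chloroform. For Ex2, tissue was taken up in 2 ml per g of a Tris buffer with sucrose, magnesium and a high potassium chloride content. Debris was removed by a spin at 10000 x g lasting 15 min, and detergent and phenol were added to the supernatant only. The pellet array carries RNA from that debris, which was kept and extracted again by the Ex2 method. The question posed by the study's title is whether the Ex2 method recovers mRNAs of secreted and endomembrane proteins. No group has a replicate and no test could be made, so each difference compares 1 array with 1 other, with no measure of how samples vary.

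Ethylene is a gaseous hormone that drives the ripening of tomato, a climacteric fruit. S-adenosylmethionine is converted to 1-aminocyclopropane-1-carboxylic acid (ACC) by ACC synthase, usually the limiting step, and ACC oxidase then turns ACC into ethylene. Both enzymes are soluble proteins, whereas the receptors that sense ethylene sit in the membrane of the endoplasmic reticulum. ACS1A encodes one of several ACC synthases of the fruit, and ACO4 and ACO5 encode ACC oxidases. ACO5 was described in tomato as induced by low oxygen. E8 encodes a dioxygenase related in sequence to ACC oxidase, its transcript accumulates strongly with ripening and ethylene, and lowering it in transgenic fruit raised ethylene production.

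The 3 synthesis enzymes shared 1 order over the arrays, lowest in Ex2, between in Ex1 and highest in the pellet, while E8 was nearly level. The deposited intensity of the ACO4 probe set was 786 in Ex1, 635 in Ex2 and 958 in the pellet. That of ACO5 was 446, 343 and 563 in the same order of arrays. That of ACS1A was 332, 215 and 394. For each of these genes the Ex2 array held the low value and the pellet array the high one, and the highest value was 1.51 times the lowest for ACO4, 1.64 times for ACO5 and 1.83 times for ACS1A. The E8 probe set read 10548 in Ex1 and 10417 in both Ex2 and the pellet. Its Ex2 and pellet values were the same to the last deposited digit, so the difference of 0 there is an exact tie in the table. Such ties between these arrays occurred in 1299 of the 10038 probe sets. Among the 181 probe sets with a mean intensity of at least 5000, as E8 has, there were 8.

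**Figure D1:**
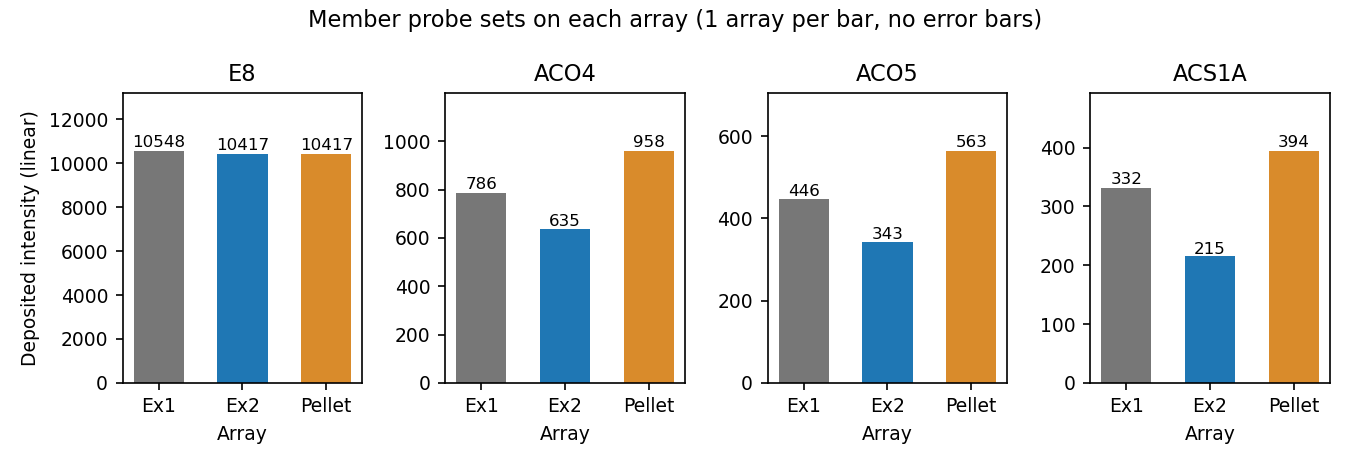
Deposited linear intensity of the E8, ACO4, ACO5 and ACS1A probe sets (y axis, starting at 0, a scale of its own per gene) on the Ex1, Ex2 and pellet arrays (x axis), 1 array per bar and no error bars. ACO4, ACO5 and ACS1A were lowest in Ex2 and highest in the pellet, and E8 lay between 10417 and 10548.

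All comparisons were made on log2(intensity + 1), where a difference of 1 is 2-fold. A probe set was counted as bright when its value on the brighter array of a comparison was at least 175, the middle value of the whole table without controls. All 4 members were above that level on every array. Between Ex2 and Ex1 the log2 difference was -0.31 for ACO4, -0.38 for ACO5, -0.62 for ACS1A and -0.02 for E8. None of the 4 was 2-fold apart. Of 5568 bright probe sets, 17.3% were higher in Ex2 by 2-fold or more and 10.1% lower by as much, and their median log2 difference was -0.25. ACO4 and ACO5 therefore stood near the middle of the table, with 47.0% and 43.3% of bright probe sets below them. For ACS1A that share was 28.8% and for E8 it was 62.0%. ACS1A, at 1.54-fold lower, was the 1 member past 1.5-fold, where 31.0% of bright probe sets were lower by that much and 20.6% higher.

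Between the pellet and Ex2 the differences were larger and of the other sign. ACS1A was 1.82-fold higher in the pellet (log2 difference 0.87), ACO5 1.64-fold (0.71) and ACO4 1.51-fold (0.59), while E8 differed by 0. Again none of the 4 was 2-fold apart, against 17.0% of 5538 bright probe sets at least 2-fold higher and 19.8% at least 2-fold lower. The 3 enzymes were past 1.5-fold, as were 30.9% of bright probe sets in that direction and 27.6% in the other, and 69.1% to 78.7% of bright probe sets lay below them. This comparison shares the Ex2 array with the first, so a low Ex2 value enters both.

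The pellet and Ex1 were the closest pair for the synthesis enzymes. The log2 difference, pellet minus Ex1, was 0.34 for ACO5, 0.28 for ACO4, 0.25 for ACS1A and -0.02 for E8. None was past 1.5-fold or 2-fold, where 3.78% of 5297 bright probe sets were at least 2-fold higher and 4.78% at least 2-fold lower. At 1.5-fold the shares were 12.2% higher and 12.6% lower.

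The shared order of ACO4, ACO5 and ACS1A was also the commonest in the table. Of 5671 probe sets bright on any array, 31.6% had Ex2 lowest, Ex1 between and the pellet highest, as did 25.9% of the 502 named genes among them. Small differences were counted with a limit of 0.2, which is wider than the difference of E8. For Ex2 against Ex1, 19.1% of bright probe sets, and 28.2% of the 181 probe sets with a mean of at least 5000, differed by at most 0.2 in log2 value. For the pellet against Ex1 those shares were 37.6% and 68.5%, and for the pellet against Ex2 they were 16.4% and 26.5%.

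The size and direction of these differences depend on how the arrays are scaled. Hybridisation spikes, bacterial RNAs added before hybridisation, had a median intensity of 509, 1164 and 796 in the order Ex1, Ex2, pellet. The 25S ribosomal RNA probe set read 1809, 367 and 568. The signal ratio of 3' to 5' probe sets of actin, a measure of RNA integrity and labelling, ran from 1.20 on Ex1 to 1.71 on Ex2. With the arrays scaled on the spikes, the median of all probe sets moved by -1.19 (Ex2 minus Ex1), 0.55 (pellet minus Ex2) and -0.64 (pellet minus Ex1). With the genes RPL3 and RPL8, which encode ribosomal proteins, as the base it moved by 0.55, -0.44 and 0.11. Under spike scaling all 4 members were over 2-fold lower in Ex2 than in Ex1, from -1.21 for E8 to -1.81 for ACS1A. That scaling turned the count of bright probe sets 2-fold higher and lower in Ex2 from 964 and 560 to 438 and 3993, and ribosomal protein scaling to 1252 and 28. For the pellet against Ex2 the counts went from 943 and 1095 to 1994 and 567 with spikes and to 381 and 1548 with ribosomal proteins. For the pellet against Ex1 they went from 200 and 253 to 36 and 1121 and to 265 and 195. Under ribosomal protein scaling ACO4 and ACO5 were higher in Ex2 than in Ex1, at 0.24 and 0.17, so that Ex1 was then their lowest array, and ACS1A was at -0.074. The part of the spike, ribosomal RNA and 3' to 5' values in the members' differences was not tested.

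**Figure D2:**
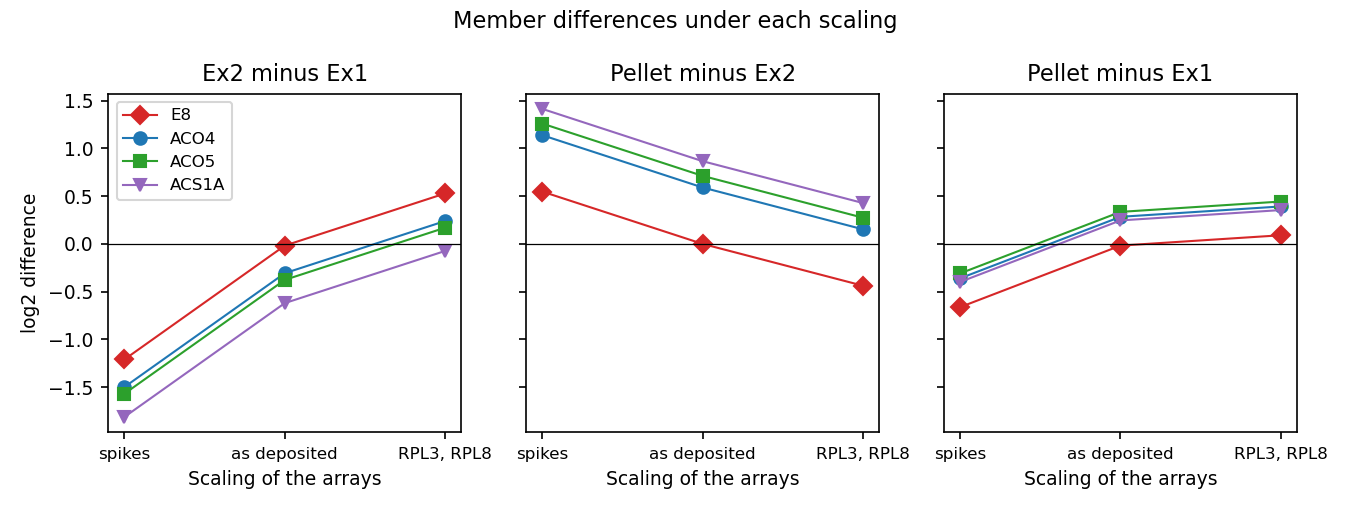
log2 difference of each member (y axis) for Ex2 minus Ex1, pellet minus Ex2 and pellet minus Ex1 (panels) with the arrays scaled on hybridisation spikes, left as deposited, or scaled on RPL3 and RPL8 (x axis), 1 array per group. The lines are parallel because scaling adds 1 constant per comparison, so the 3 enzymes stay below E8 for Ex2 minus Ex1 and above it in the other panels.

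The distance between members does not move with a constant scaling. Relative to E8, Ex2 minus Ex1 was lower by 0.29 for ACO4, by 0.36 for ACO5 and by 0.60 for ACS1A on the log2 scale. For pellet minus Ex2 they stood above E8 by 0.59, 0.71 and 0.87. ACO4 and ACO5 differed least from each other, with a distance of 0.09 over the plane of Ex2 minus Ex1 and pellet minus Ex1, and ACS1A and E8 differed most, at 0.66. As a yardstick within arrays, the median gap between bright probe sets of 1 gene was 0.22 in Ex2 minus Ex1 (26 genes) and 0.38 in pellet minus Ex2 (24 genes). The largest such gaps were 1.15 and 1.21. The distance of ACS1A from E8 was above the median gap and below the largest in both comparisons, and so were those of ACO4 and ACO5. These gaps are no error between samples.

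Of the 14 ACC synthase and ACC oxidase symbols looked for, 11 had a named probe set and 6 were bright. ACS1B, ACO1 and ACO3 had no probe set named for them in the annotation used here. ACS1B is the direct neighbour of ACS1A in the RefSeq gene table, and whether the ACS1A probe set also reads it was not tested. ACS2 and ACS4 encode the synthases most closely linked to the autocatalytic ethylene of ripening. ACS4 read 4747, 4898 and 4665 in Ex1, Ex2 and the pellet, within 1.05-fold. ACS2 read 4768, 4623 and 3459. It was thus lowest in the pellet, by 1.38-fold against Ex1, where ACS1A was highest. For ACO6, another ACC oxidase gene, the brightest probe set read 2680 on all 3 arrays. Its other probe sets differed by -0.46 and -0.29 for Ex2 minus Ex1, so the 3 probe sets of ACO6 lay further apart than ACO4 and E8 did. Over the 6 bright genes the median difference was -0.18 (Ex2 minus Ex1), 0.30 (pellet minus Ex2) and 0.12 (pellet minus Ex1), beside -0.25, 0.07 and 0 over all bright probe sets. None was past 2-fold in any comparison on the deposited scale, and each of these medians turned sign under 1 of the scalings on spikes or ribosomal proteins. With the filter at the upper quartile (636.6) the medians were -0.022, -0.035 and -0.013. ACS1A and ACO5 did not reach that level on any array, so these medians leave them out. ACS3, ACS5, ACS6, ACS7 and ACS8 were below 175 on every array, with 87.5 the highest value among them.

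The S-adenosylmethionine synthetase genes supply the substrate of ACC synthase. SAM3 read 930 in Ex1, 630 in Ex2 and 1100 in the pellet, the same order as ACS1A. SAM1 read 3682, 3065 and 3214. Both were lowest in Ex2, by 0.56 and 0.26 against Ex1, and neither was 2-fold apart in any comparison on the deposited scale. With spike scaling both (-1.75 and -1.46), and 3993 of 5568 bright probe sets, were at least 2-fold lower in Ex2. With ribosomal protein scaling SAM1 was above its Ex1 value in Ex2.

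The genes for sensing and relaying ethylene lay apart from the members. The 6 bright genes of the receptors and EIN2, a membrane protein downstream of them, were each higher in Ex2 than in Ex1 by 2-fold or more, as were 17.3% of bright probe sets. EIN2 and ETR6 were bright through Ex2 alone, so they could pass only by differing. The 4 genes bright on both arrays, a choice made after the values were seen, ran from 1.07 for ETR4 over ETR3 (now LOC544279) and ETR2 to 2.61 for ETR1, with a median of 1.36. With EIN2 (3.15) and ETR6 (2.47) the median was 2.03. Under spike scaling 3 of the 6 were at least 2-fold higher, and ETR4 and ETR3 turned below 0. The lowest of them stood 1.08 above the highest member, E8. For pellet minus Ex2 the 6 were all at least 2-fold lower (median -2.02), as were 19.8% of bright probe sets, and the nearest stood 1.73 below the lowest member. There ETR6 was bright through Ex2 alone, and the 5 genes bright on both arrays had a median of -2.01. ETR1, a receptor gene bright on every array, read 238 in Ex1, 1456 in Ex2 and 361 in the pellet, where ACS1A read 332, 215 and 394. For pellet minus Ex1 the ranges overlapped, with receptors and EIN2 from -0.91 to 0.60. These distances are also free of a constant scaling, and with 1 array per group they have no test.

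The soluble relay lay nearer. CTR1 and CTR3, kinases that repress the response, and EIL1, EIL2, EIL3 and EIL4, transcription factors that start it, were 0.17 to 0.51 above their Ex1 value in Ex2. In that comparison 34.5% of bright probe sets were above 0, and none of the 6 was 2-fold apart on the deposited scale. All 6 turned below 0 with spike scaling, and 2 were at least 2-fold higher with ribosomal protein scaling. The lowest of them, EIL2, stood 0.19 above E8, which is less than the median gap of 0.22 between probe sets of 1 gene. For pellet minus Ex2, where 45.2% of bright probe sets were below 0, they were at -1.13 to -0.64, and all were below the members. There 3 of the 6 were at least 2-fold lower, beside 19.8% of bright probe sets, a count that was 1 with centring on medians, 1 with the upper-quartile filter, 0 with spike scaling and 6 with ribosomal protein scaling. CTR3, 1 of the 3, was below 175 in the pellet and bright through Ex2 alone, so it could pass only by being lower in the pellet. Of the 5 genes bright on both arrays, 2 were at least 2-fold lower, and their median was -0.87. For pellet minus Ex1 all 6 were below 0, from -0.85 to -0.25, as were 47.1% of bright probe sets. There CTR3 was bright through Ex1 alone.

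The ethylene response factors, transcription factors further down the pathway, differed in the direction of ACO4, ACO5 and ACS1A in both comparisons with Ex2. All 7 bright genes were lower in Ex2 than in Ex1, as were 62.7% of bright probe sets. Their median was -0.52, beside -0.25 for those probe sets, and none was past 2-fold on the deposited scale. Under spike scaling all 7 (-2.19 to -1.24), and 3993 of 5568 bright probe sets, were at least 2-fold lower. On the deposited scale ERF3 and TERF1 (now LOC606712) were both 1.99-fold lower and PTI4 was at -0.96. ERF4 was at -0.52, ERF2 at -0.40, JERF1 at -0.11 and JERF3 at -0.05. For pellet minus Ex2 the 7 were above 0 (median 0.90), as were 52.5% of bright probe sets, and PTI4 and TERF1 were 2.15-fold and 2.14-fold higher in the pellet. ERF4 was below 175 in Ex2, so in these comparisons it could pass only by being higher on the other array. The 6 genes bright on both arrays had medians of -0.68 (Ex2 minus Ex1) and 0.55 (pellet minus Ex2). For pellet minus Ex1 the direction was not shared, with 4 of the 7 above 0 and 3 below (median 0.06). The shares of bright probe sets there were 48.7% and 47.1%. With ribosomal protein scaling 3 of the 7, ERF3, TERF1 and PTI4, stayed below 0 for Ex2 minus Ex1, and 4 of the 7 stayed above 0 for pellet minus Ex2. A further 9 genes have ER and a number as their symbol, most of them first isolated as ethylene-regulated in tomato, and were added as a list after their values were seen. On the deposited scale, none of the 7 bright for Ex2 minus Ex1 was 2-fold apart. They ran from -0.83 for ER24, a coactivator gene, to 0.53 for ER1, which encodes a proteinase inhibitor, with a median of 0. For pellet minus Ex2, where 8 were bright, ER24 was 2.33-fold higher and ER66 2.27-fold lower in the pellet, and for pellet minus Ex1 none of the 8 was 2-fold apart.

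**Figure D3:**
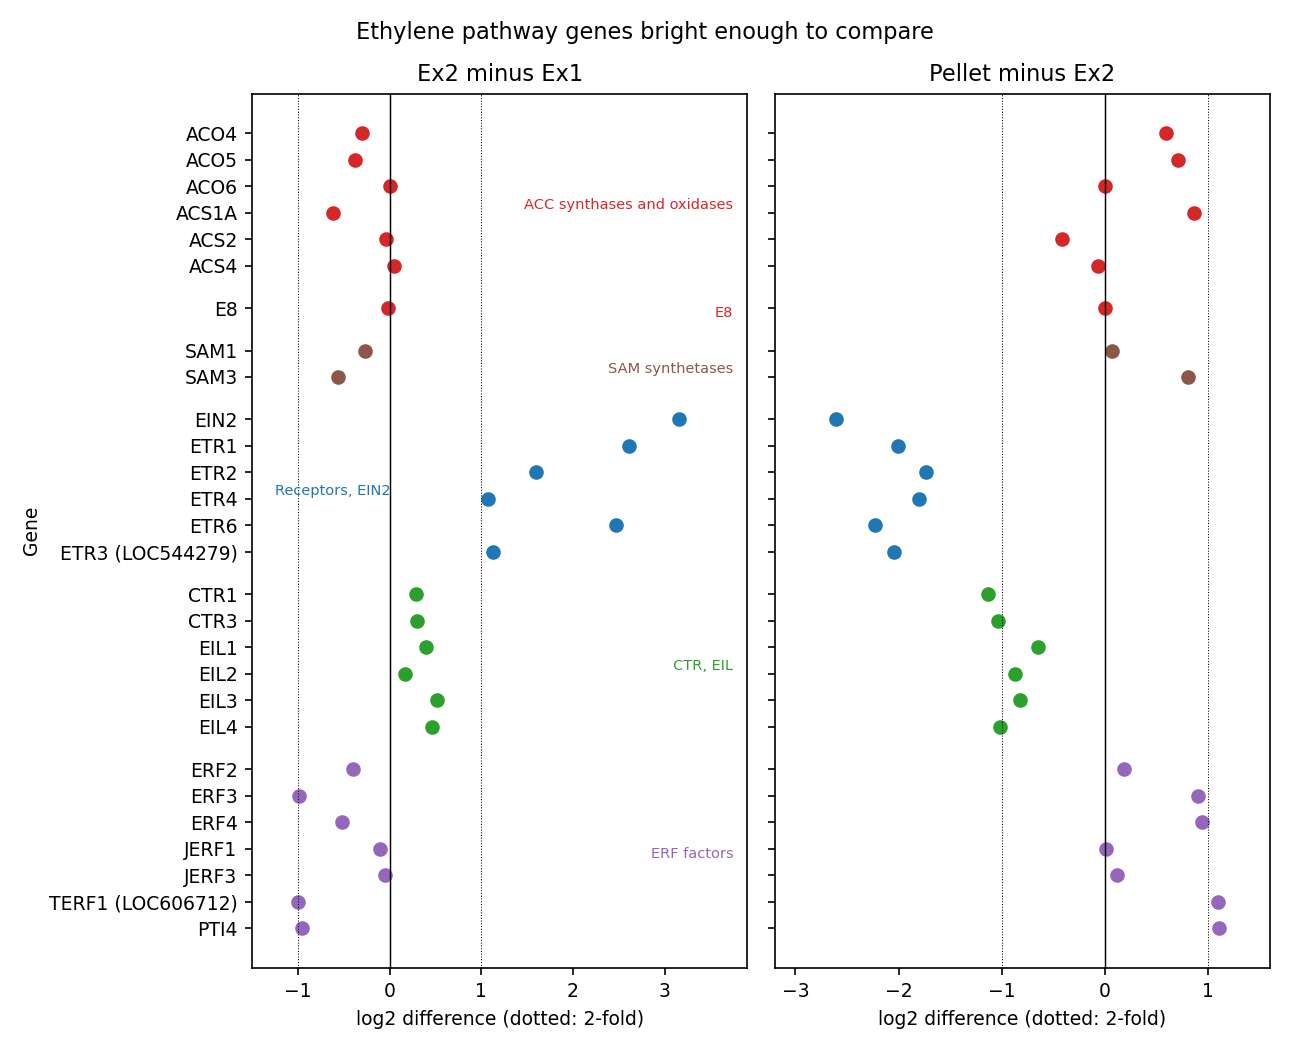
log2 difference (x axis, dotted lines at 2-fold) of each bright ethylene gene (y axis, grouped by role) for Ex2 minus Ex1 (left) and pellet minus Ex2 (right), 1 array per group. Receptors and EIN2 lay at 1.07 to 3.15 on the left and -2.60 to -1.73 on the right, while ACC synthases, ACC oxidases and E8 lay within 0.87 of 0 in both.

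Genes whose pattern was most like each member were found among the other 501 named genes bright on any array, by Euclidean distance over the log2 differences Ex2 minus Ex1 and pellet minus Ex1 of the 3 arrays. The nearest to ACO4 were vis1, ACO5, ail, LOC544142 and PDF1A, at distances of 0.05 to 0.13. The nearest to ACO5 were ail at 0.01, vis1, LOC543815, ACO4 and LOC544142 at 0.09. ACO4 and ACO5 were thus each among the 5 nearest to the other, and ACO6 was among the 5 nearest to neither. The nearest to ACS1A were AOC, which encodes an enzyme of jasmonate synthesis, Rab11a, TFT6, H1 and LOC543930, at 0.02 to 0.05. The nearest to E8 were LOC100037517, LOC544153, CrtR-b1, a carotene hydroxylase gene, ADH2, an alcohol dehydrogenase gene linked to fruit flavour, and LOC544252, at 0.02 to 0.03. Like E8, each of these had an exact tie between arrays, so the likeness to E8 rests in part on such ties. The median distance to all 501 genes was 0.66 for E8 and 0.77 for ACS1A. With 3 arrays such likeness describes these arrays only.

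**Figure D4:**
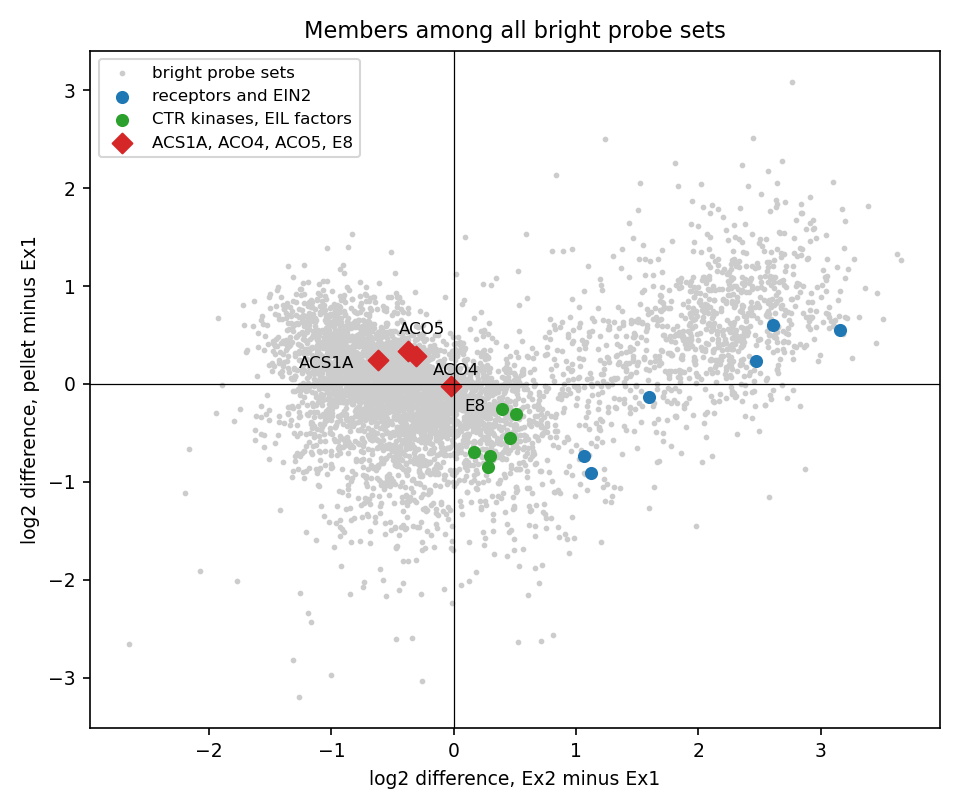
log2 difference of Ex2 minus Ex1 (x axis) against pellet minus Ex1 (y axis) for the 5671 probe sets bright on any array (grey), with the members (red), receptors and EIN2 (blue) and CTR and EIL genes (green). ACS1A, ACO4 and ACO5 lay left of 0 and above 0, E8 at -0.02 on both axes, and the axes share the Ex1 array.

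Some tissue markers also differed between the arrays, while CAB5 and the seed marker were far below 175 on each. Of 8 green tissue symbols, CAB4 and CAB5 had a named probe set. CAB4, a chlorophyll-binding protein gene, read 306, 227 and 522 in Ex1, Ex2 and the pellet, the order of ACO4, ACO5 and ACS1A, and CAB5 read 14.9 on each. Of 4 epidermal symbols, 3 were measured, with a summed intensity of 2365, 7698 and 6672. Of 3 vascular symbols, 2 were measured, with sums of 128, 467 and 157. SUT2 read 101, 345 and 111, so it was bright through Ex2 alone and could pass only by being higher there. The other, pip1, read 27.5, 122 and 47.0, below 175 on each array. The 1 seed marker measured, MAN2, read 10.8 to 14.0. Since the arrays differ by extraction, the number of cells of a type, RNA per cell and recovery by the method cannot be told apart. The part of these tissues in the members' values was not tested.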

How the data were processed

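The deposited values are probe set intensities on a linear scale. Per the submitters' processing notes GCOS 5.0 and RMA were used, with no order or parameters. The authors' deposited intensity columns had near-equal medians (179, 177 and 170.0). The table holds 10209 probe sets, 171 of them controls. The platform annotation, which is old, named 909 probe sets and left 9129 unnamed, and the symbols of 885 could be updated by gene ID with RefSeq's gene list for assembly SLM_r2.1. Differences are of log2(intensity + 1), which understates those of dim genes. A gene with several probe sets was represented by its brightest. Members, lists and rules were chosen with earlier results of these data known. Genes described by value are the members, the bright genes of the ethylene lists and the 5 genes nearest each member, by rule, beside dim ACS genes, tissue markers, genes used for scaling and an added ER list. Alternatives were 4 other scalings, filters, fold thresholds, a pseudocount of 16, averaged probe sets, no cross-hybridising designs, and a maximum distance. The planned comparison of protein features was not run, since protein sequences were not used here. The counting code was checked on simulated arrays, which gives no error rate for the real ones. Python 3.11.15, pandas 2.3.3, NumPy 2.4.6 and matplotlib 3.10.9 were used. The number of arrays limits the precision.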

Additional observations from a re-analysis of the deposited data

How the results depend on the processing

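No paired analysis was possible because each group has 1 array, and no array could be left out. With 1 array per group a value was taken to have moved when it changed by more than the median gap between probe sets of 1 gene. Centring on medians, quantile normalization and a pseudocount of 16 moved no member by that much. Ribosomal protein scaling gave Ex2 minus Ex1 of -0.074 for ACS1A, 0.24 for ACO4, 0.53 for E8, 0.17 for ACO5 and 0.37 for the median of ACC synthases and oxidases. It gave pellet minus Ex2 of 0.43, 0.15, -0.44, 0.27 and -0.14 in that order. Spike scaling gave Ex2 minus Ex1 of -1.81, -1.5, -1.21, -1.57 and -1.37. There 6 of these enzyme genes were at least 2-fold lower, as were 3993 of 5568 bright probe sets. It gave pellet minus Ex2 of 1.41, 1.14, 0.55, 1.26 and 0.84. There 3 enzyme genes were at least 2-fold higher, as were 1994 of 5538 bright probe sets. Pellet minus Ex1 was -0.40, -0.36, -0.66, -0.31 and -0.52 with spikes. There 1 enzyme gene was at least 2-fold lower, as were 1121 of 5297 bright probe sets. A threshold of 1.5-fold gave 1 enzyme gene lower in Ex2 than in Ex1 and 3 higher in the pellet than in Ex2, against 0 at 2-fold. The other 129 values for the members and for the ACC synthases and oxidases moved by less than the median gap, or for counts by at most 1.5 times. Among them the enzyme medians for pellet minus Ex2 and pellet minus Ex1 turned to -0.035 and -0.013 with the upper-quartile filter. That filter left out ACS1A and ACO5. Both medians were 0 with no filter. With the maximum distance 5 of the 5 nearest genes remained for ACS1A and ACO5, 4 for ACO4 and 3 for E8. The planned protein window could not be run. A gene below 175 on at least 1 of the compared arrays has a less certain difference. In some comparisons that applies to EIN2, ETR6, CTR3, ERF4, PDF1A, the vascular marker SUT2 and ER43, a gene of the ER list.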
